A study of Mus musculus with 46 samples.

Results

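Actins are the proteins that polymerize into the filaments of the cell cortex, stress fibres and muscle, and 10 genes for actins and for proteins that bind actin or move it were followed in murine EPP2 pancreatic cancer cells. They are the actins Acta2, Actb and Actg1, the filament-binding genes Tagln, Tagln2, Tpm1, Tpm2 and Cnn2, the myosin light chain gene Myl9 and the adhesion gene Vcl. They were taken by symbol from the deposited count tables. Of the 10, 9 are listed among the 9857 symbols that the DMSO and torin 1 tables share, and Tagln is not listed. The set was selected on measured values, with earlier results of the same libraries known, namely the lower number of Acta2 footprints per Acta2 transcript in Ctu1 iKO cells with DMSO. That contrast is therefore described with its values, and nothing is supported with it.

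Cytoplasmic actins (Actb, Actg1) are made by nearly all cells, whereas Acta2, the alpha-actin of smooth muscle, also appears in myofibroblasts and in carcinoma cells with mesenchymal features. Filaments are stabilized by tropomyosins and calponins, pulled by myosin II and anchored at focal adhesions through vinculin, and many of these genes are transcribed by SRF with its actin-regulated partner MRTF. Ctu1 is part of the enzyme that thiolates the wobble uridine of the tRNAs that read the codons AAA, CAA and GAA (VAA codons), and torin 1 inhibits the kinase mTOR, which controls translation of many mRNAs.

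Both ribosome-protected fragments and polyadenylated RNA were taken from each of 23 cultures of EPP2 cells, a murine pancreatic cancer line that here is a clone grown from a single cell and carries a doxycycline-inducible Cas9, which gave 46 libraries. Ctu1 iKO cells carried guide RNAs against Ctu1, and the labels of all libraries, controls included, name 300 ng/mL doxycycline for 4 days as the way the knockout was induced. The methods allow as controls both cells with guide RNAs that target no coding sequence and cells kept without doxycycline, and do not say which served here. Cultures received DMSO or 300 nM torin 1 for 2 h: 6 control and 5 Ctu1 iKO cultures had DMSO, and 6 control and 6 Ctu1 iKO cultures had torin 1. All groups share the clone, so that a difference between genotypes compares cell populations derived from 1 clone. The footprint replicates are described by the study as independent experiments, and p-values measure the spread between these cultures.

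Footprint libraries held between 4602092 and 52907878 counts (median 15387951) and RNA-seq libraries between 129881946 and 325494304 (median 252733758). Libraries of replicates 3 to 6 were placed along the torin 1 and genotype differences of replicates 1 and 2, over genes averaging 10 counts or more. All 15 footprint libraries of replicates 3 to 6 lay on the side of their labels on both differences. Of the 15 RNA-seq libraries, 6 lay against their label for treatment (Ctu1 iKO DMSO replicates 4 and 5, and replicates 5 and 6 of both torin 1 groups), and 4 of these 6, those with torin 1, also lay against their label for genotype. Transcripts were therefore compared in replicates 1 to 3 and footprints in all replicates. Ctu1 itself had 4.63 CPM (counts scaled to library size) in RNA-seq of Ctu1 iKO DMSO replicates 1 to 3 and 4.62 CPM in control, and 1.79 ± 0.42 CPM (SD, n = 5) in footprints against 2.53 ± 0.65 (SD, n = 6). Counts over the whole gene do not check a small Cas9 edit. Of the epithelial marker list, 4 of 8 genes are listed, and Krt8 and Krt18 stood at 135 and 122 CPM in RNA-seq of control DMSO cells, whereas Epcam and Cdh1 are not listed. Vim, the intermediate filament gene of mesenchymal cells, stood at 2410 CPM. Of the smooth muscle list 3 of 7 are listed. Smtn stood at 112 CPM in RNA-seq and 93.2 CPM in footprints, Myh11 at 0.051 and 20.9 CPM, and Actg2 at 0.0705 and 3.33 CPM, while none of the 4 endothelial and 5 leukocyte markers is listed.

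The actin genes are so alike that sequence matters for which footprints can be told apart, and the stretch below shows this. It lies near the 3′ end of the coding sequence, on the minus strand of GRCm38, and capitals mark bases that differ from Actb. Acta1, the skeletal muscle actin, is no member and is shown because it had footprint counts with almost no RNA-seq counts, as given below. The places are chr19:34241715-34241774 for Acta2, chr8:123892057-123892116 for Acta1, chr5:142903846-142903905 for Actb and chr11:120346438-120346497 for Actg1, all within a coding exon.
Acta2: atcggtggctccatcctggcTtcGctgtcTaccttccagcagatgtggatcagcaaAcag
Acta1: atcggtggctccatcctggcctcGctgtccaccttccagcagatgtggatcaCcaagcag
Actb: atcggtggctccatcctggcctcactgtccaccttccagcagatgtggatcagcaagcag
Actg1: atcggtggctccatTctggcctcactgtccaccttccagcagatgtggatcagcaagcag
Of these 60 bases Acta2 has 4 bases that differ from Actb, Acta1 has 2 and Actg1 has 1, and the longest run shared with Actb is 26 bases for Acta2, 28 for Acta1 and 45 for Actg1. Over whole coding sequences Actb is identical to Actg1 at 88.6% of bases, to Acta1 at 85.02% and to Acta2 at 82.98%. Footprints under 27 nt had been discarded by the authors. Of all windows of 27 bases in the coding sequence, 15.2% in Actb, 12.5% in Actg1, 7.76% in Acta1 and 3.52% in Acta2 occur without a mismatch in another actin. With up to 1 mismatch these shares come to 35.5%, 27.7%, 26.4% and 18.3%. Myl9 shares 1.83% of its windows with Myl12a or Myl12b, and 18.1% with up to 1 mismatch. Tpm1 and Tpm2 share 1.09% with each other, and Tagln2, Cnn2 and Vcl share none with their relatives. No window of 100 bases, the length of an RNA-seq mate, is shared by any of the 9 members, so counts of transcripts are less open to this than counts of footprints.

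The genes lie apart in the genome. In GRCm38, Acta2 spans chr19:34241090-34255590, Actb chr5:142903115-142906754, Actg1 chr11:120345690-120348542, Tagln2 chr1:172500047-172507380, Tpm1 chr9:67022590-67049406, Tpm2 chr4:43514711-43523765, Cnn2 chr10:79988584-79996062, Myl9 chr2:156775420-156781658 and Vcl chr14:20929398-21033676. The CArG box is the site that SRF binds, and only its strict form was searched, CCWWWWWWGG, where W is A or T. RefSeq promoters (GRCm38.p6, 250 bases before the start) were found for 8 of the 10 members, not for Actb and Tagln, and both strands were searched. A CArG box stands in 4 of these 8, against 108 of 7829 listed genes with a promoter (1.38%) and 1.62% of all 27025 RefSeq promoters. The stretches of 30 bases below show it, with the box in capitals.
Actg1: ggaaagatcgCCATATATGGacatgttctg
Cnn2: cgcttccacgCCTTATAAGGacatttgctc
Myl9: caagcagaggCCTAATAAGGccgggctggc
Vcl: cccactatgcCCTTATAAGGagcgccccgc
The box begins 90 bases before the RefSeq start in Actg1 (chr11:120348566-120348595, minus strand), 56 in Cnn2 (chr10:79988534-79988563), 161 in Myl9 (chr2:156775293-156775322) and 227 in Vcl (chr14:20929161-20929190). Of these 4 genes, only Vcl has its RefSeq start at the end of the gene span given above, and in the others it lies inside the span. The strict form is not in this window of Acta2, Tagln2, Tpm1 and Tpm2. Boxes with another base in the core, or outside the 250 bases, were not searched for, so these genes may still have a site. The match is a description of the sequence and not a measured site.

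The members also differ widely in VAA codons, the codons read by Ctu1-modified tRNAs. Tpm1 has 14.1% VAA codons, above 96.5% of the 9588 listed genes with a coding sequence, and Tpm2 has 11.3%, above 90.0%. Vcl, with 7.41%, is also over the median of 6.135%. The actins are low, with 4.77% in Acta2, 3.73% in Actg1 and 2.13% in Actb, and Cnn2 has 3.61%. Tagln2 has 1.51% and Myl9 has 0.581%, above 1.87% and 0.438% of genes.

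The members differed widely in level, and the order of the genes was not the same in both assays. In control cells with DMSO, Actb had 12450 ± 661 footprint CPM per kb of coding sequence (SD, n = 6), Actg1 8892 ± 773 and Tpm1 3749 ± 892. Tagln2 followed with 910.2 ± 51.7, then Tpm2 with 167.9 ± 33.0, Cnn2 with 149.2 ± 21.7 and Acta2 with 123.1 ± 30.0, of which Tpm2, Cnn2 and Acta2 are neighbours within their spread. Vcl had 23.4 ± 8.3 and Myl9 16.7 ± 4.0, which are also neighbours within their spread. Per kb of transcript, Actb (2284 ± 66), Tpm1 (1917 ± 297) and Actg1 (1457 ± 95) had the most RNA-seq CPM (SD, n = 3), Acta2 had 3.24 ± 1.28 and Myl9 0.126 ± 0.073. Footprint CPM per RNA-seq CPM of the same gene had a median of 0.819 over 9728 genes in replicates 1 to 3. It was 0.935 for Cnn2, 0.977 for Tpm1, 0.986 for Vcl, 1.26 for Tagln2, 1.85 for Tpm2, 3.25 for Actb and 3.52 for Actg1. Acta2 had 20.9 footprint CPM per RNA-seq CPM and Myl9 56.4, higher than all but 243 and 202 genes. Acta1 had a ratio of 7579, with 421.2 ± 46.5 footprint CPM (SD, n = 6) and at most 0.098 RNA-seq CPM in control DMSO replicates 1 to 3. Among all genes, 102 had under 1 RNA-seq CPM and over 100 footprint CPM, of which 59 are histone genes, whose mRNAs mostly lack a poly(A) tail, and 6 are mitochondrial. Eno1b, a gene near identical to Eno1 and named after its values were seen, had 2930 footprint CPM and 0.244 RNA-seq CPM. Whether footprints of other actins are counted in Acta1, Acta2 or Actg2 was not tested, since counts per gene hold no positions.

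**Figure D1:**
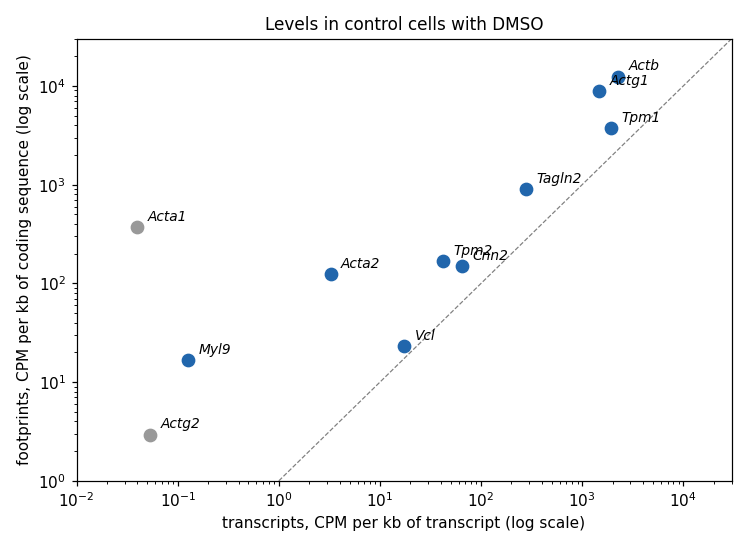
Footprint CPM per kb of coding sequence against RNA-seq CPM per kb of transcript in control cells with DMSO (means of 6 and 3 cultures, both axes on a log scale), with members in blue, Acta1 and Actg2 in grey and a dashed line where both are equal. Acta2 and Myl9 lie far above the line, at 20.9 and 56.4 footprint CPM per RNA-seq CPM, and Acta1 farther still.

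Genes were tested with edgeR's quasi-likelihood test, over all genes averaging 10 counts or more, and called at an adjusted p (Benjamini-Hochberg, over all genes tested) under 0.05. A log2 change is given with its standard error (SE). Levels, changes and footprints per transcript are relative to the other genes of a library. A rise or fall of translation shared by all genes does not show in them. Same-numbered replicates deviated together in all transcript comparisons and in footprints for torin 1 in control and for genotype with torin 1, so the fit with the replicate number as a block is given beside the main fit there. The contrast on which the set was chosen comes first. In Ctu1 iKO against control with DMSO, transcripts of Acta2 and Cnn2 were called among the 9 members, against 5.12% of all genes, and with the block 6 of 9 against 28%. In footprints of that contrast Cnn2 alone was called, against 2.66% of all genes. Translational efficiency (footprints relative to transcripts, replicates 1 to 3) had no call among members in that contrast and 0% over all genes in edgeR, where 399 genes, 2 of them members, had an unadjusted p under 0.05 and DESeq2 called 21 genes, 1 of them a member. Nothing is read from these counts.

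The other comparisons are not the contrast that chose the set, but were run with earlier results of these data known. Under torin 1, Ctu1 iKO against control gave 1 called member in footprints (Actg1), against 4.83% of all genes, and 2 with the block (Actg1 and Vcl), against 14.4%. Transcripts of that comparison had no called member in edgeR, against 1.31% of all genes. There 7 members had an unadjusted p under 0.05 in edgeR and 6 were called by DESeq2, beside 1932 and 1092 of all 9650 genes. With the block 8 of 9 members were called in transcripts, all but Actb, against 32.8% of all genes. Translational efficiency had no called member there, against 0.111%, and with the block 2 (Acta2 and Actg1), against 0.404%. In it 4 members had an unadjusted p under 0.05 in edgeR and 2 were called by DESeq2, beside 468 and 104 of all 9901 genes.

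Torin 1 in control cells gave no called member in footprints, against 7.24% of all genes, and with the block 2 (Actb and Actg1), against 20.5%. There 1 member had an unadjusted p under 0.05 in edgeR and none was called by DESeq2, beside 2071 and 1068 of all 9856 genes. In transcripts no member was called, against 13.1%, with none at an unadjusted p under 0.05 and none by DESeq2, and with the block 3 (Acta2, Tpm1 and Vcl), against 43.7%. A share of 3 in 9 members is below that background. In translational efficiency no member was called, against 1.14%, with none at an unadjusted p under 0.05 and none by DESeq2. Torin 1 in Ctu1 iKO cells gave 2 called members in footprints (Actg1 and Cnn2), against 8%, and 1 in translational efficiency (Actg1), against 1.67%. Transcripts there had none, against 8.25%, with none at an unadjusted p under 0.05 and none by DESeq2, and with the block 3 (Actg1, Tpm2 and Vcl), against 35.1%, so that their share is close to the background. The effect of torin 1 differed between genotypes, by the interaction test, for 1 member in footprints (Actg1), against 0.639% of all genes, and for none in transcripts, against 0%, where edgeR had 140 genes but no member at an unadjusted p under 0.05 and DESeq2 called 3 genes and no member. In the interaction test for footprints, all 63 called genes had a more negative torin 1 effect in Ctu1 iKO than in control cells, as Actg1 did. In translational efficiency, 156 of the 164 genes called for torin 1 in Ctu1 iKO cells were lower, and so were all 11 called for genotype with torin 1. These comparisons share cultures with each other.

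**Figure D2:**
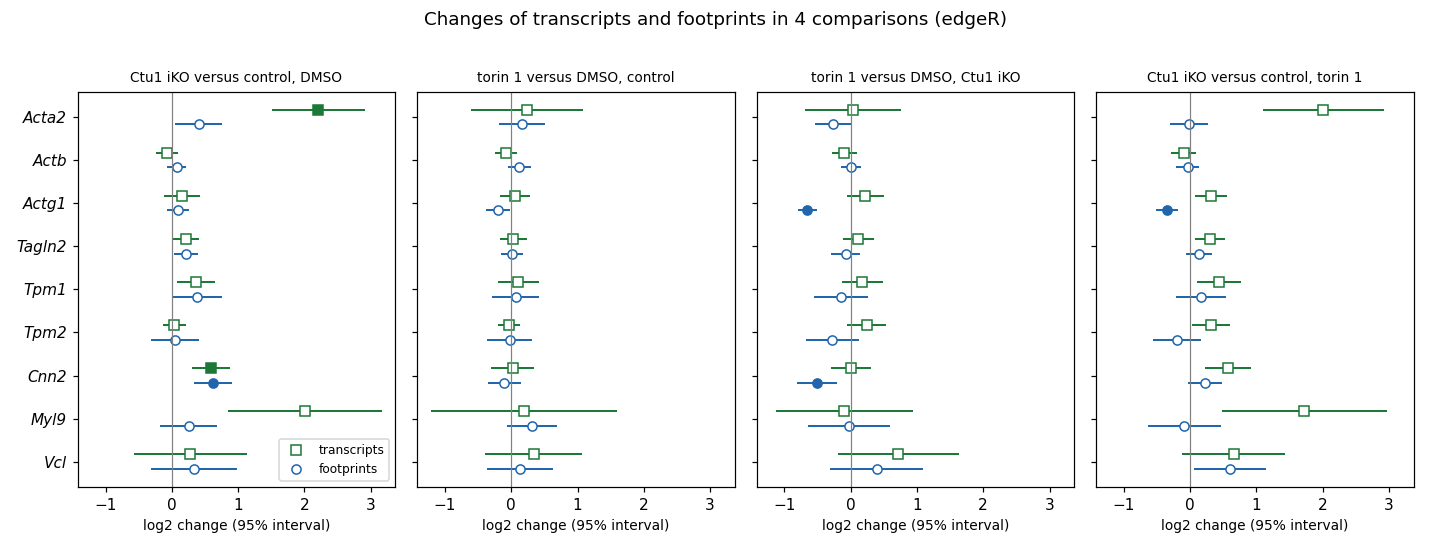
Log2 changes of the 9 members in transcripts (green squares, replicates 1 to 3) and footprints (blue circles, all replicates) in 4 comparisons, with 95% intervals, where filled symbols have an adjusted p under 0.05 in edgeR. Acta2 transcripts lie at 2.21 and 2.01 in the comparisons of genotype while its footprints lie at 0.40 and -0.02, and Actg1 footprints are the only ones called in both comparisons that involve Ctu1 iKO cells with torin 1.

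Acta2 transcripts were several times more abundant in Ctu1 iKO than in control cells with either treatment, whereas Acta2 footprints differed little. With DMSO, Acta2 transcripts stood at 8.39, 7.79 and 3.62 CPM in control replicates 1 to 3 and at 35.6, 29.3 and 26.6 CPM in Ctu1 iKO. The groups did not overlap, which held for 30.9% of the 9857 genes in this comparison, and the log2 difference was 2.21 ± 0.30 (SE), a 4.64-fold higher level. Acta2 footprints in the same treatment ranged from 93.7 to 185.7 CPM in control (median 134.5, n = 6) and were 195.3, 157.5, 179.7, 173.9 and 215.7 CPM in Ctu1 iKO, a log2 difference of 0.40 ± 0.16. Footprints per transcript were accordingly lower by a log2 value of -1.85 ± 0.41. These are the values that chose the set. In bulk samples, more transcript in each cell and more cells with the transcript cannot be told apart.

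The contrast with torin 1 is not the one that chose the set, but it is no independent check of it. Its RNA-seq libraries deviated together with the same-numbered DMSO libraries (r from 0.526 to 0.838 in control and from 0.647 to 0.775 in Ctu1 iKO). Cultures with torin 1 were measured in the same way. Acta2 transcripts stood at 9.83, 8.84 and 4.88 CPM in control and at 38.9, 37.9 and 16.7 CPM in Ctu1 iKO replicates 1 to 3. Every Ctu1 iKO value was above every control value, in a comparison where 26% of all genes did not overlap between the groups, and the log2 change was 2.01 ± 0.38 (adjusted p = 0.061 in edgeR, 1.14e-05 with the block, where it was 1.97 ± 0.08). With replicates 4 to 6 added as labelled, among them the 4 libraries that lay against both labels, the log2 change of Acta2 transcripts was 1.083 ± 0.465 (adjusted p = 0.950 in edgeR), and those of Cnn2, Vcl, Actg1 and Myl9 were 0.26, 0.46, 0.20 and 0.95 (adjusted p = 0.950 for each). Those of Tpm1, Tagln2 and Tpm2 were 0.17, 0.17 and 0.21 (adjusted p = 0.950 for each). Acta2 footprints ranged from 124.0 to 195.2 CPM in control (median 156.0, n = 6) and from 126.6 to 184.6 CPM in Ctu1 iKO (median 155.9, n = 6). The groups overlapped almost wholly, and the log2 change was -0.02, with a 95% interval from -0.28 to 0.25 that excludes a change as large as the 2.01 of the transcripts. Footprints per Acta2 transcript differed by -2.15 ± 0.45 on the log2 scale (adjusted p = 0.116 in edgeR, and 0.00985 with the block, where it was -2.10 ± 0.27), and by -1.10 with all replicates as labelled (adjusted p = 0.591). Torin 1 itself passed the threshold for neither measure of Acta2 in edgeR. Footprints differed by 0.16 ± 0.16 in control and -0.27 ± 0.12 in Ctu1 iKO cells (adjusted p = 0.639 and 0.211), and Acta2 transcripts by 0.24 ± 0.36 and 0.03 ± 0.30 (adjusted p = 0.732 and 0.9751). The sign of both turned under alternatives, to -0.06 in control cells without DMSO replicate 3, and in Ctu1 iKO cells to -0.06 with the block and -0.22 with all replicates as labelled. With the block, Acta2 transcripts rose by 0.26 ± 0.08 with torin 1 in control cells (adjusted p = 0.0230), and with all replicates as labelled their change was 0.79 (adjusted p = 0.107). Acta2 made up 0.569% to 0.708% of all actin footprints over the 4 groups, but 0.092% and 0.111% of actin transcripts in control and 0.418% and 0.413% in Ctu1 iKO cells. Of 10 fibroblast or mesenchymal markers 8 are listed, all but Col1a2 and Dcn, and their summed RNA-seq level was 3180 to 3200 CPM in control and 4000 to 4180 CPM in Ctu1 iKO with DMSO, and 3940 to 4160 CPM and 6100 to 6430 CPM with torin 1. The 4 epithelial markers had 286 to 307, 319 to 398, 380 to 437 and 550 to 619 CPM in the same order, while the 3 smooth muscle markers lay between 98.6 and 137 CPM in all groups. In footprints the summed mesenchymal markers overlapped between genotypes, at 4490 to 6310 and 4650 to 6810 CPM with DMSO and 3750 to 4790 and 3020 to 5880 CPM with torin 1. The epithelial markers overlapped too, at 331 to 403 and 365 to 501 CPM, and 308 to 410 and 395 to 499 CPM. Higher transcripts beside overlapping footprints are thus not particular to Acta2. The part of these markers in the result was not tested.

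**Figure D3:**
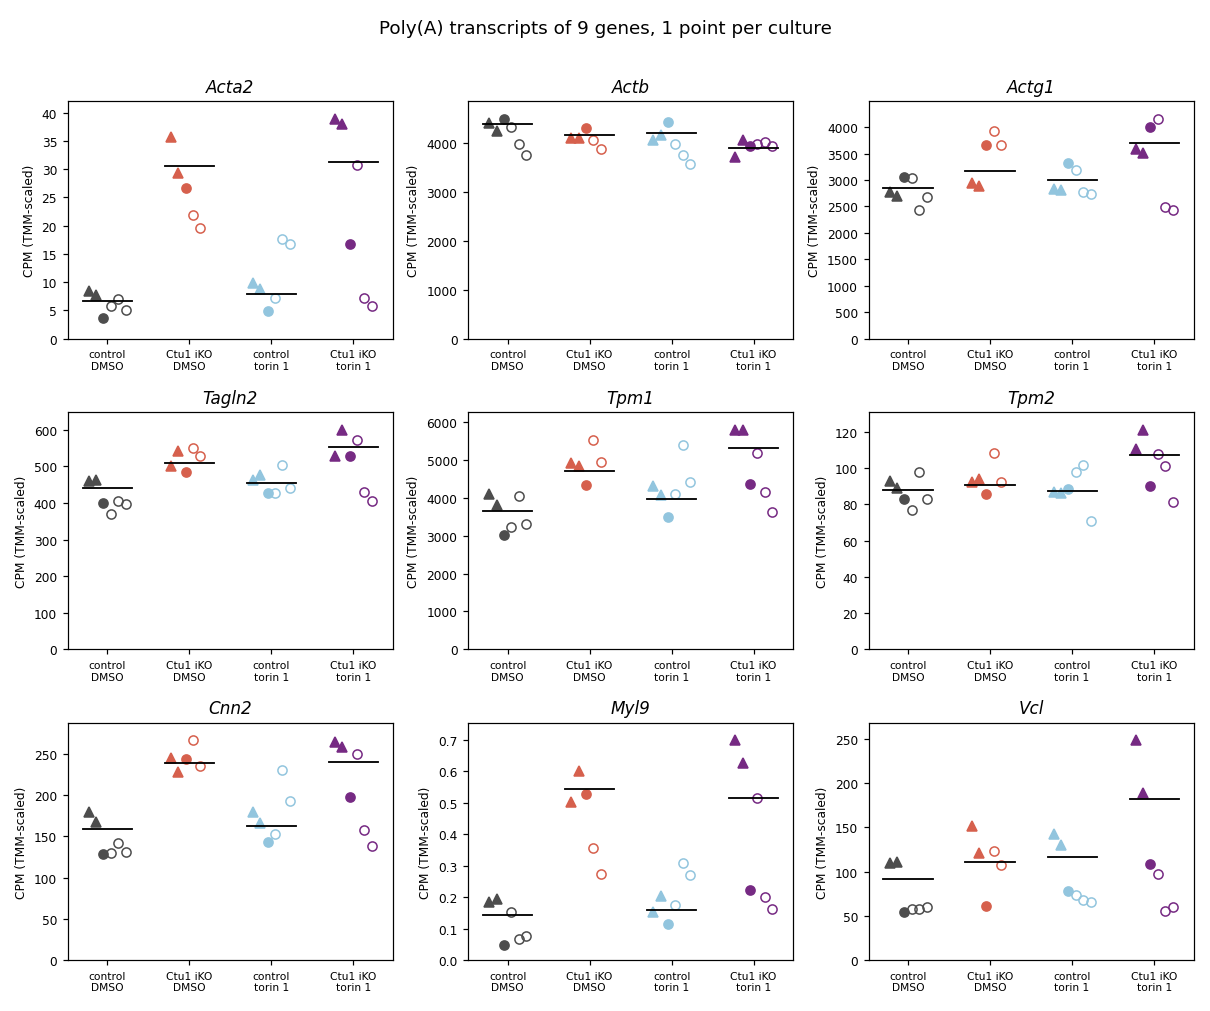
RNA-seq CPM (TMM-scaled) of the 9 members in each culture, from 0, with triangles for replicates 1 and 2, circles for the others, open symbols for replicates 4 to 6, which were not used in the comparisons, and bars for the mean of replicates 1 to 3. In Acta2 the filled points of Ctu1 iKO lie between 16.7 and 38.9 CPM and those of control between 3.62 and 9.83 CPM, and replicates 5 and 6 of the torin 1 groups, open, lie the other way round.

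Actg1, a cytoplasmic actin that differs from Actb by few residues, had the lowest adjusted p of the members in footprints. Its footprints ranged from 8906 to 11560 CPM in control cells with DMSO (median 9888, n = 6) and from 7973 to 9419 CPM with torin 1 (median 8696, n = 6). In Ctu1 iKO cells they were 11140, 10240, 11400, 10190 and 10420 CPM with DMSO and ranged from 6501 to 7230 CPM with torin 1 (median 6838, n = 6). The 6 values of Ctu1 iKO cells with torin 1 lay below the values of all other cultures. Groups without overlap were found for 8.16% of all genes for torin 1 in Ctu1 iKO cells and for 4.31% for genotype with torin 1. With torin 1, Actg1 footprints fell by 0.65 ± 0.06 on the log2 scale in Ctu1 iKO cells (adjusted p = 6.66e-06), and their log2 change was -0.20 ± 0.08 in control cells (adjusted p = 0.150, and 0.00130 with the block). The torin 1 effect differed between the genotypes by -0.44 ± 0.09 (adjusted p = 0.0166, interaction in edgeR), in a fit that holds the DMSO cultures of both genotypes, and without Ctu1 iKO DMSO replicate 1 by -0.43 (adjusted p = 0.051). Among cultures with torin 1 alone, Actg1 footprints were lower in Ctu1 iKO than in control cells by a log2 value of -0.35 ± 0.07 (adjusted p = 0.0113), and within replicates 1 and 2 and within 3 to 6 the differences were -0.29 and -0.38.

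Actg1 transcripts stood at 2775, 2703 and 3054 CPM in control and 2942, 2889 and 3670 CPM in Ctu1 iKO cells with DMSO, and at 2837, 2815 and 3321 CPM and 3580, 3508 and 3994 CPM with torin 1. Under torin 1 the values of Ctu1 iKO lay above all control values (26% of all genes did not overlap there), with a log2 change of 0.32 ± 0.10 (adjusted p = 0.137, and 0.000982 with the block). The log2 change of Actg1 transcripts with torin 1 was 0.22 ± 0.11 in Ctu1 iKO cells (adjusted p = 0.285, and 0.01 with the block). With all replicates as labelled it was -0.02 (adjusted p = 0.994), in the opposite direction. Footprints per Actg1 transcript fell by 0.90 ± 0.15 on the log2 scale with torin 1 in Ctu1 iKO cells (adjusted p = 0.00475, 0.086 without Ctu1 iKO DMSO replicate 1, where it was -0.83, and 0.0543 with all replicates as labelled, where it was -0.63), while the change in control cells was -0.24 ± 0.13 (adjusted p = 0.840). Between genotypes with torin 1 the change in footprints per transcript was -0.68 ± 0.14 (adjusted p = 0.114, and 0.0357 with the block).

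Actb, the most abundant actin, varied little between groups relative to the other genes. Its footprints ranged over 13030 to 14980 CPM in control with DMSO, 14120 to 15890 CPM in Ctu1 iKO with DMSO, 13960 to 16270 CPM in control with torin 1 and 13570 to 15500 CPM in Ctu1 iKO with torin 1. All groups overlapped. With torin 1 the log2 change of Actb footprints was 0.01 in Ctu1 iKO cells, with a 95% interval from -0.13 to 0.14, and 0.12 ± 0.07 in control cells (adjusted p = 0.368, and 0.0103 with the block). Between genotypes with torin 1 the change was -0.04 ± 0.07 (adjusted p = 0.858). Actb transcripts lay between 3718 and 4499 CPM in replicates 1 to 3 of all groups, with log2 changes of -0.10 to -0.07 in the 4 comparisons, none called.

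The ratio of Actb to Actg1 within a culture needs no scaling between libraries, and it was computed after the values of both genes had been seen. In footprints it was 1.40 ± 0.06 in control with DMSO (SD, n = 6), 1.38 ± 0.03 in Ctu1 iKO with DMSO (SD, n = 5), 1.76 ± 0.06 in control with torin 1 (SD, n = 6) and 2.19 ± 0.16 in Ctu1 iKO with torin 1 (SD, n = 6). Both DMSO groups lay at or below 1.46, control cultures with torin 1 between 1.69 and 1.85, and Ctu1 iKO cultures with torin 1 between 1.97 and 2.34, with no overlap between these 3 ranges. Since the pair was chosen from these values, no test is given. In transcripts (replicates 1 to 3) the ratio was 1.54 ± 0.06, 1.33 ± 0.14, 1.41 ± 0.07 and 1.06 ± 0.09 in the same order (SD, n = 3), lowest where the footprint ratio was highest.

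**Figure D4:**
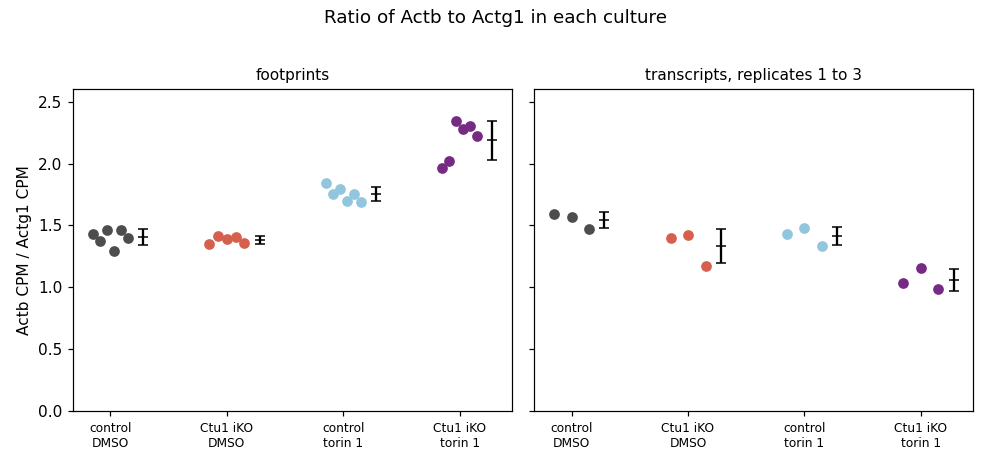
Actb CPM divided by Actg1 CPM in each culture, for footprints (left) and for transcripts of replicates 1 to 3 (right), with the mean and SD of each group in black. In footprints the ratio is 1.40 and 1.38 with DMSO and 1.76 and 2.19 with torin 1 in control and Ctu1 iKO cells, and in transcripts it is lowest, 1.06, in Ctu1 iKO cells with torin 1.

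Among the genes whose products lie along the filament, Cnn2, which encodes calponin 2, was the one called in footprints in the main fit. Cnn2 footprints ranged from 114.7 to 165.7 CPM in control with DMSO (median 132.2, n = 6) and were 247.1, 225.7, 235.2, 183.8 and 162.2 CPM in Ctu1 iKO with DMSO. With torin 1 they ranged from 106.6 to 150.5 CPM in control (median 123.5) and from 117.9 to 175.4 CPM in Ctu1 iKO (median 149.1, n = 6 each). The Ctu1 iKO cultures with DMSO stood highest, and overlapped with the others at their lower end. With torin 1, Cnn2 footprints fell by 0.51 ± 0.13 in Ctu1 iKO cells (adjusted p = 0.0304). They were lower in all 5 same-numbered pairs, but the numbers were not taken to pair in this comparison. Leaving out any of 7 of the 11 cultures (Ctu1 iKO DMSO replicate 1, 2 or 3, or torin 1 replicate 2, 3, 5 or 6) raised the adjusted p above 0.05, to at most 0.080, with values from -0.59 to -0.44. In control cells the change was -0.10 ± 0.11 (adjusted p = 0.684), and the difference between these effects, -0.40 ± 0.17, was not called (adjusted p = 0.963). Cnn2 transcripts stood at 179.3, 165.6 and 143.1 CPM in control and at 264.1, 258.3 and 197.7 CPM in Ctu1 iKO with torin 1, without overlap (as for 26% of all genes), with a log2 change of 0.58 ± 0.14 (adjusted p = 0.095, and 0.00043 with the block). With DMSO they stood at 179.4, 167.4 and 128.8 CPM in control and 245.4, 227.5 and 243.8 CPM in Ctu1 iKO, a difference of 0.59 ± 0.12 that belongs to the contrast used for the choice.

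Tpm1 and Tpm2, the tropomyosins that lie in the groove of the filament, were not called in footprints in any comparison of the main fit. With a term for replicates 1 and 2 against 3 to 6, Tpm1 was called for genotype with DMSO, the contrast that chose the set. There its footprints were higher in Ctu1 iKO by 0.34 ± 0.07 (adjusted p = 0.0146 in edgeR, against 0.261 in the main fit). Tpm1 footprints ranged from 2426 to 4336 CPM in control with DMSO, from 3216 to 5332 CPM in Ctu1 iKO with DMSO, from 2652 to 4381 CPM in control with torin 1 and from 2903 to 5435 CPM in Ctu1 iKO with torin 1. These ranges hold replicates 1 and 2, with 4610 CPM on average over the 4 groups, and replicates 3 to 6, with 3070 CPM, and no culture of replicates 1 and 2 was below the highest of the others (3840 against 3820 CPM). Tpm2 footprints likewise averaged 171 CPM in replicates 1 and 2 and 121 CPM in replicates 3 to 6. Under torin 1 the footprint change of Ctu1 iKO against control was 0.17 ± 0.17 for Tpm1 (adjusted p = 0.684) and -0.20 ± 0.16 for Tpm2 (adjusted p = 0.582), with 0.30 and 0.07 for Tpm1 and -0.10 and -0.25 for Tpm2 within replicates 1 and 2 and within 3 to 6. Tpm1 transcripts with torin 1 stood at 4306, 4077 and 3497 CPM in control and 5801, 5781 and 4354 CPM in Ctu1 iKO, a log2 change of 0.44 ± 0.14 (adjusted p = 0.141, 0.000538 with the block, and 0.950 with all replicates as labelled, where it was 0.17). Tpm2 transcripts stood at 86.6, 86.3 and 88.6 CPM and at 110.5, 121.3 and 89.95 CPM, a change of 0.31 ± 0.12 (adjusted p = 0.199, and 0.0267 with the block). For both, every Ctu1 iKO value was above every control value, in the comparison where 26% of all genes did not overlap. Tpm1 and Tpm2 are the members richest in VAA codons, and their footprints per transcript differed under torin 1 by -0.20 ± 0.32 and -0.55 ± 0.24 between genotypes (adjusted p = 0.9999 and 0.9805).

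Tagln2, a small calponin-like protein that binds actin outside muscle, was not called in footprints in any comparison, with or without the block. Its footprints ranged from 507.4 to 588.0 CPM in control and 577.3 to 708.4 CPM in Ctu1 iKO with DMSO, and from 511.0 to 584.7 CPM and 509.6 to 674.9 CPM with torin 1. Their log2 change with torin 1 was 0.01 in control cells, with a 95% interval from -0.14 to 0.15, and -0.08 ± 0.09 in Ctu1 iKO cells (adjusted p = 0.699). Between genotypes with torin 1 the change was 0.14 ± 0.09 (adjusted p = 0.432). Tagln2 transcripts with torin 1 stood at 462.3, 477.1 and 426.9 CPM in control and 529.2, 601.0 and 528.8 CPM in Ctu1 iKO, a change of 0.29 ± 0.09 (adjusted p = 0.140, 0.00395 with the block, and 0.950 with all replicates as labelled, where it was 0.17).

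Myl9, a regulatory light chain of non-muscle and smooth muscle myosin II, resembled Acta2 in having few transcripts for its footprints. In RNA-seq it had 14 to 30 counts in control replicates 1 to 3 with DMSO (0.047 to 0.195 CPM) and 66 to 134 in Ctu1 iKO (0.502 to 0.602 CPM). With torin 1 it had 0.154, 0.205 and 0.115 CPM in control and 0.699, 0.628 and 0.224 CPM in Ctu1 iKO, a log2 change of 1.72 ± 0.52 (adjusted p = 0.139, and 0.0112 with the block). Its footprints averaged 8.65 ± 2.06 CPM in control with DMSO (SD, n = 6), 10.35 ± 2.32 in Ctu1 iKO with DMSO (SD, n = 5), 10.8 ± 1.6 in control with torin 1 and 10.25 ± 4.202 in Ctu1 iKO with torin 1 (SD, n = 6 each), and all groups overlapped. The footprint change between genotypes with torin 1 was -0.09 ± 0.25, with a 95% interval from -0.62 to 0.44, and 0.36 in replicates 1 to 3 alone. At 62 to 468 counts a library, footprint changes of Myl9 smaller than this interval were not detectable.

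Vcl, which encodes vinculin and links integrin adhesions to actin, was split by replicate number. Over all groups its footprints averaged 138 CPM in replicates 1 and 2 and 70.2 CPM in replicates 3 to 6, a ratio of 1.97. With torin 1, Vcl footprints of replicates 1 to 6 stood at 112.3, 115.7, 62.1, 61.8, 74.6 and 65.3 CPM in control and at 213.9, 161.9, 92.4, 85.6, 99.2 and 93.8 CPM in Ctu1 iKO. The Ctu1 iKO value was the higher one in 6 of 6 same-numbered pairs, and the pooled groups overlapped. The log2 change was 0.60 ± 0.25 (adjusted p = 0.202), and with the block Vcl footprints rose by 0.56 ± 0.08 (adjusted p = 0.00108), with 0.70 within replicates 1 and 2 and 0.49 within 3 to 6. Vcl transcripts in the same cultures stood at 141.9, 129.9 and 78.5 CPM in control and 248.4, 188.7 and 109.1 CPM in Ctu1 iKO, a log2 change of 0.66 ± 0.33 (adjusted p = 0.310, and 0.000742 with the block, where it was 0.62 ± 0.07). Footprints per Vcl transcript differed by 0.02, with a 95% interval from -1.13 to 1.16. With the block, Vcl transcripts rose with torin 1 by 0.36 ± 0.06 in control and by 0.74 ± 0.07 in Ctu1 iKO cells (adjusted p = 0.000314 and 8.95e-05, against 0.539 and 0.307 without the block). With all replicates as labelled these changes of Vcl transcripts were 0.30 and 0.17 (adjusted p = 0.469 and 0.993). Vcl footprints in Ctu1 iKO cells were higher with torin 1 in 5 of 5 same-numbered pairs, though the numbers were not taken to pair in this comparison. Their log2 change was 0.39 ± 0.32 (adjusted p = 0.527), or 0.50 ± 0.11 (adjusted p = 0.0088) with a term for replicates 1 and 2 against 3 to 6.

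**Figure D5:**
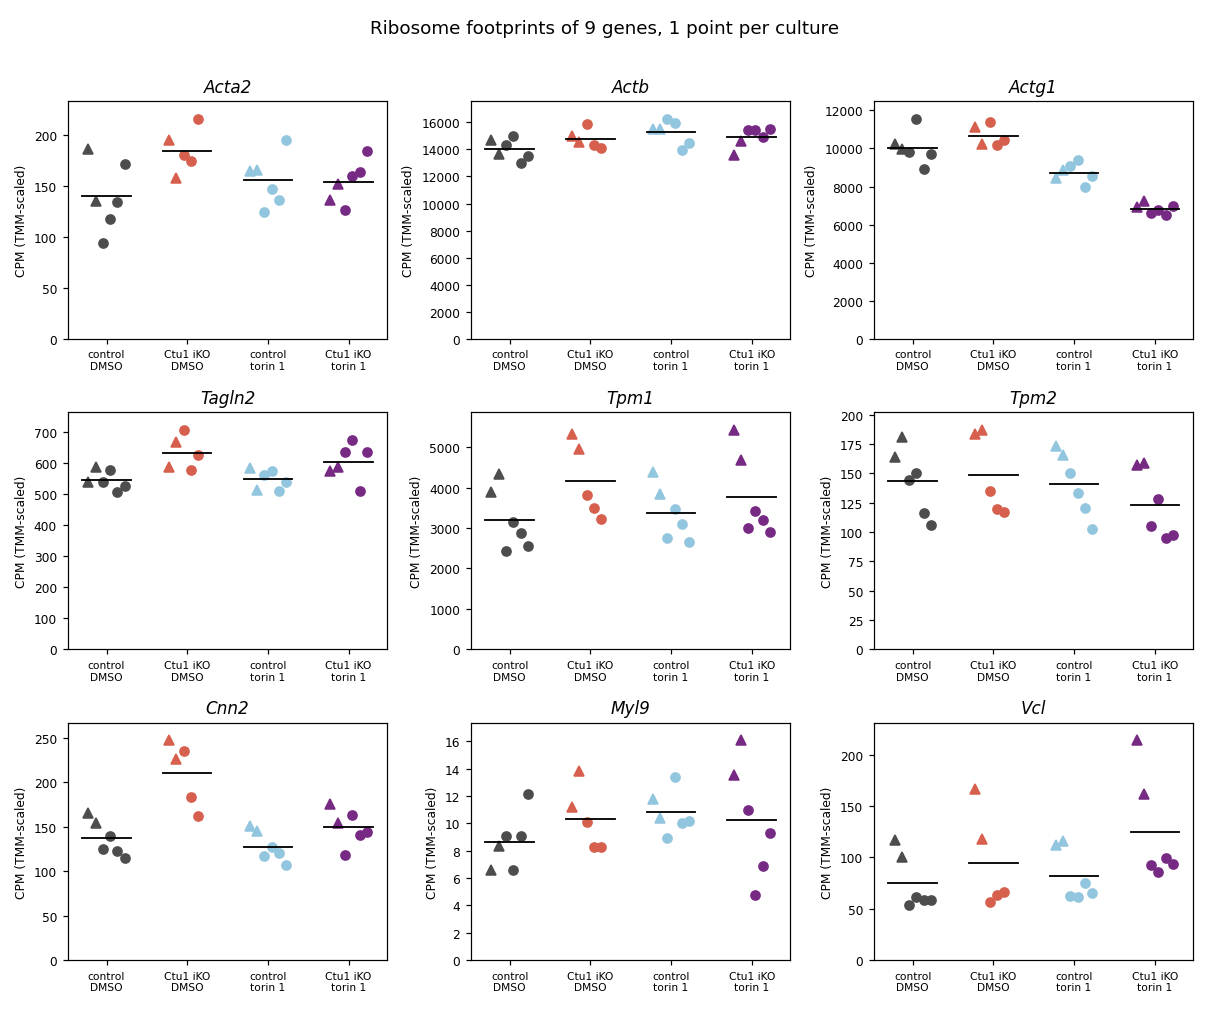
Footprint CPM (TMM-scaled) of the 9 members in each of the 23 cultures, from 0, with triangles for replicates 1 and 2, circles for replicates 3 to 6 and bars for the group means. Actg1 is lowest, at 6501 to 7230 CPM, in Ctu1 iKO cells with torin 1, Acta2 overlaps in all groups, and Vcl, Tpm1 and Tpm2 split by replicate number.

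Other genes of the actin cytoskeleton were taken from a list of 59 that holds no member, of which 55 were tested in footprints and 53 in transcripts, and 33 targets of SRF and MRTF, of which 27 or 28 were tested. With torin 1, footprints of 2 of the 55 cytoskeleton genes rose and 1 fell in Ctu1 iKO against control, against 4.83% of all genes called. The cross-linker genes Actn1 and Actn4, which encode alpha-actinins, rose by 0.53 ± 0.11 and 0.44 ± 0.11 (adjusted p = 0.0132 and 0.0363). Arpc4, a subunit of the Arp2/3 complex that branches filaments, fell by 0.43 ± 0.09 (adjusted p = 0.0160). Of the 27 SRF and MRTF targets 2 rose and none fell, Actn1 again and Pdlim5, a binder of alpha-actinin, by 0.53 ± 0.12 (adjusted p = 0.0197). With the block, footprints of 11 cytoskeleton genes rose and 5 fell, and 7 targets rose and 2 fell, against 14.4% of all genes. Median changes were 0.0624 for the cytoskeleton list and 0.122 for the targets, beside 0.0123 over all genes. In transcripts of that comparison no gene of either list was called, with medians of 0.167 and 0.233 beside 0.00517 over all genes. Of the parts of the cytoskeleton list, the 7 cross-linking genes tested had the highest median, 0.472. The other parts ran from 0.0396 (Arp2/3 and capping) to 0.279 (other actins and thin filament). With the block 24 of 53 cytoskeleton genes rose and 5 fell in transcripts, and 16 of 27 targets rose and 5 fell, against 32.8% of all genes called. In the contrast with DMSO, on which the members were chosen, transcripts of 7 of 53 cytoskeleton genes and 2 of 28 targets rose and none fell, against 5.12% of all genes, so that the share of targets is near the background in this fit. With the block 16 and 11 rose and 2 and 3 fell, against 28%, and the 14 of 28 targets called are above that background. Among them Tmsb4x, which encodes the monomer-binding thymosin beta 4, rose by 0.83 ± 0.12 (adjusted p = 0.0174), Myl6, a myosin essential light chain, by 0.48 ± 0.07 (adjusted p = 0.0174) and Mrtfa, itself the partner of SRF, by 0.38 ± 0.06 (adjusted p = 0.0203). Footprints of 3 of 55 cytoskeleton genes and 1 of 28 targets rose there and none fell, against 2.66% of all genes, among them Tmsb4x by 0.75 ± 0.14 (adjusted p = 0.0135) and the LIM-domain gene Fhl1 by 1.197 ± 0.235 (adjusted p = 0.0171).

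Torin 1 was compared with DMSO in the same lists. In Ctu1 iKO cells, footprints of 1 of 55 cytoskeleton genes rose and 2 fell, and 3 of 27 targets rose, against 8% of all genes, and with the block 4 and 6 rose and 3 and 1 fell, against 9.97%. In transcripts 1 of 53 cytoskeleton genes rose, and 2 of 27 targets rose and 1 fell, against 8.25%, and with the block 14 and 8 rose and 3 and 5 fell, against 35.1%. Flna, the cross-linker filamin A, stands in both lists and rose by 1.084 ± 0.261 in footprints (adjusted p = 0.02) and 1.16 ± 0.24 in transcripts (adjusted p = 0.0304). Lima1, which bundles filaments, rose by 0.63 ± 0.16 in footprints and 0.75 ± 0.16 in transcripts (adjusted p = 0.0295 and 0.0304), and Filip1l by 0.66 ± 0.14 in footprints (adjusted p = 0.00909). Arpc4 and Capzb, the latter a subunit of the capping protein, fell in footprints by 0.36 ± 0.09 and 0.33 ± 0.07 (adjusted p = 0.0220 and 0.0123). Ccn1, a secreted target of SRF and YAP, fell in transcripts by 0.96 ± 0.17 (adjusted p = 0.0167). In control cells 1 cytoskeleton gene rose and 1 target fell in footprints, against 7.24%, and 3 cytoskeleton genes and 1 target rose and 2 targets fell in transcripts, against 13.1%. With the block 14 cytoskeleton genes and 8 targets rose and 2 targets fell in footprints, against 20.5%, and 17 and 13 rose and 5 and 6 fell in transcripts, against 43.7%. Ccn1 fell there by 0.80 ± 0.20 in footprints and 0.82 ± 0.11 in transcripts (adjusted p = 0.0239 and 0.00471). Pxn, which encodes paxillin of the focal adhesion, rose in control cells by 0.41 ± 0.10 in footprints (adjusted p = 0.0243). In the test of whether these effects differ between the genotypes, edgeR called no list gene in footprints, with 3 of 75 at an unadjusted p under 0.05, against 0.639% of all genes called. Arpc4 was called there by DESeq2 and with the block (adjusted p = 0.0194 and 0.044), with differences of -0.40 and -0.37, against 1.41% of all genes with the block, and had -0.39 ± 0.11 in edgeR without it (adjusted p = 0.184). In transcripts edgeR and DESeq2 called none of 73 list genes, with 0 at an unadjusted p under 0.05.

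For likeness of pattern, Pearson's r with Acta2 was taken over log2(CPM + 1) and is a description with no test, since the libraries share groups, depth and replicate number. Over the 23 footprint libraries the genes outside the set with the highest r were Rnaset2a (0.73), Gm49673 (0.72), Gm49721 (0.72), Rnaset2b (0.71) and Parva (0.66). Rnaset2a and Rnaset2b are near-identical copies of a ribonuclease gene, so that their footprints may be split between them, and Parva encodes parvin alpha, which joins actin to focal adhesions. Among the members r with Acta2 footprints was highest for Cnn2 (0.40) and Tpm1 (0.24), and ran from -0.16 (Tpm2) to 0.22 (Tagln2) for the others. Over the 12 RNA-seq libraries of replicates 1 to 3, Acta2 transcripts had r of 0.99 with Cnn2, 0.96 with Myl9, 0.93 with Tpm1 and 0.88 with Tagln2, and of 0.66, 0.61, 0.40 and -0.70 with Tpm2, Vcl, Actg1 and Actb. Genes outside the set reached the same values, the highest being Selenow (0.99), Lgals1 (0.98), Nenf (0.98), Pmepa1 (0.98) and Col15a1 (0.97). A high r is therefore not particular to the members. These libraries fall into groups by genotype, which the values include.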

How the data were processed

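Ribosome footprint and RNA-seq tables were deposited as raw counts per gene symbol. For footprints the authors trimmed with cutadapt 3.4, discarded fragments under 27 nt, extracted unique molecular identifiers with UMI-tools 1.1.1, removed rRNA and counted with STAR 2.5.3a. The processing notes name mm10 and GRCm38 while the methods name a human build, and the listed symbols are mouse. All RNA-seq counts are even numbers. With DMSO 10397 symbols are listed, with torin 1 9913, and 9857 in both.

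Counts were tested with edgeR 4.0.16 (quasi-likelihood, TMM, R 4.3.3) over genes averaging 10 counts or more, with Benjamini-Hochberg adjustment over all of them. Translational efficiency was the interaction of assay and group in replicates 1 to 3. CPM values are scaled by TMM over the 23 libraries of an assay. The shallowest footprint library, of 4602092 counts, carries the largest counting error. Scripts were tested on simulated data with known changes. DESeq2 1.42.0, library totals, other replicate sets, a batch term, a culture term, the block and leaving out each culture were tried as alternatives. The Actb to Actg1 ratio and its alternatives were added after the data were seen.

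Replicate numbers come from the labels, which give 5 or 6 a group. The study describes the footprint data as 5 or 6 independent experiments and RNA-seq data as 2, and its methods speak of 2 replicates on consecutive days. Deviations from group means correlated between same-numbered libraries at 0.488 to 0.838 in RNA-seq, at 0.435 to 0.641 in footprints for torin 1 in control and at 0.319 to 0.547 for genotype with torin 1, so these numbers were taken to pair. In footprints for genotype with DMSO and for torin 1 in Ctu1 iKO the lowest values were -0.101 and -0.0327, and they were not.

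The members, lists and tests were chosen with earlier results of these data known. Named are all members, up to 3 called genes per direction and list with a mean of at least 100 counts, and the 5 genes most correlated with Acta2 in each assay. Coding sequences came from the GRCm38 annotation and promoters from RefSeq.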

Additional observations from a re-analysis of the deposited data

Results flagged for a closer look

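The torin 1 effect on Actg1 footprints differed between Ctu1 iKO and control cells by -0.442 on the log2 scale (adjusted p = 0.017, interaction in edgeR). All 63 genes called in that test had this direction. Of the RNA-seq libraries left out of the comparisons, Ctu1 iKO DMSO replicates 4 and 5 had 21.88 and 19.57 CPM of Acta2, against 3.616 to 8.394 CPM in control DMSO replicates 1 to 6. Myl9 stood at 0.3579 and 0.2746 CPM in Ctu1 iKO DMSO replicates 4 and 5, the second under the limit of 1.5 times the highest control, against 0.04723 to 0.1952 CPM in the same controls. Both libraries lay against their label for treatment. For Acta2, replicates 5 and 6 of the torin 1 groups, also left out, lay the other way round between the genotypes. Among 36 groups of member values tested for a culture far from the others, 0 were found, where chance gives about 1 in 20.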

How the results depend on the processing

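No member called without the block reversed its direction under any alternative run. Of 126 log2 changes of members, 48 had another sign under at least 1 alternative. None of these 48 was called in the fit without the block, where they were at most 0.389 in size, or under the alternative that turned it, but 4 were called with the block, all in transcripts. These were Actg1 for torin 1 in Ctu1 iKO, Acta2 and Tpm1 for torin 1 in control (-0.06 and -0.00644 without control DMSO replicate 3) and Vcl for genotype with DMSO (-0.00525 without Ctu1 iKO DMSO replicate 1). With all replicates as labelled, torin 1 in Ctu1 iKO turned transcripts of Actg1 from 0.22 to -0.02, Tagln2 from 0.12 to -0.03, Tpm1 from 0.18 to -0.03 and Acta2 from 0.03 to -0.22. The block turned Tpm2 footprints for genotype with DMSO from 0.05 to -0.04, and replicates 1 to 3 alone turned Myl9 footprints for genotype with torin 1 from -0.09 to 0.36. Counts of called members moved as follows, and the cause was not tested except where fewer cultures entered. In footprints, replicates 1 to 3 alone gave 0 members for genotype with DMSO, 1 for torin 1 in Ctu1 iKO, 0 for genotype with torin 1 and 0 for the difference of torin 1 effects. A term for replicates 1 and 2 against 3 to 6 gave 2 for genotype with DMSO (Cnn2 and Tpm1) and 2 for genotype with torin 1 (Actg1 and Vcl). The replicate block gave 2 for torin 1 in control, 3 in Ctu1 iKO (Actg1, Cnn2 and Vcl) and 2 for genotype with torin 1, and library totals gave 1 for torin 1 in Ctu1 iKO, where Cnn2 stood at -0.41 (adjusted p = 0.0613). In transcripts the replicate block gave 6 for genotype with DMSO, 3 for torin 1 in control, 3 in Ctu1 iKO and 8 for genotype with torin 1. DESeq2 gave 4 for genotype with DMSO and 6 with torin 1, beside 1530 of 10119 and 1092 of 9650 genes. Replicates 1 and 2 gave 4 and 1 for these, and 1 and 3 for torin 1 in control and Ctu1 iKO, and all replicates as labelled gave 6 for genotype with DMSO, beside 2677 of 10128 genes. In translational efficiency, DESeq2, all replicates and a culture term each gave 1 for genotype with DMSO, beside 21 of 10386 genes in DESeq2 and 5 of 10397 with all replicates. All replicates gave 0 and a culture term 2 for torin 1 in Ctu1 iKO. For genotype with torin 1, DESeq2 gave 2, a culture term 1 and the replicate block 2. The block changed no other count of members. Shares over all genes are not given for replicates 1 and 2, replicates 1 to 3, the term for replicates 1 and 2 against 3 to 6 or the culture term. They are not given for fits that leave out a culture either, and nothing is read from the counts of members in all these fits.

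With each culture left out in turn, footprint counts ran from 0 to 1 for genotype with DMSO (0 without control replicate 3 or 5 or Ctu1 iKO replicate 3), 1 to 2 for torin 1 in Ctu1 iKO and 0 to 1 for the difference of torin 1 effects. Transcript counts ran from 0 to 2 for genotype with DMSO, 0 to 1 for torin 1 in Ctu1 iKO and 0 to 5 for genotype with torin 1, the 1 and the 5 both without Ctu1 iKO torin 1 replicate 3. Translational efficiency ran from 0 to 1 for torin 1 in Ctu1 iKO. The log2 ratio of Actb to Actg1 ran from 0.300 to 0.335 for torin 1 in control, 0.637 to 0.687 in Ctu1 iKO and 0.295 to 0.345 for genotype with torin 1. In Ctu1 iKO it was 0.652 with the replicate block and 0.722 in replicates 3 to 6.

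Library totals moved the median of all genes to 0.104 and 0.115 in footprints for torin 1 in control and Ctu1 iKO, and the genes called higher and lower from 287 and 427 to 602 and 327, and from 343 and 445 to 580 and 317. For genotype with torin 1 they moved from 221 and 258 to 281 and 202. Depth limits Myl9 most, with 14 RNA-seq counts in its lowest library.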
